A study of Mus musculus with 53 samples.

Results

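The transcriptome of the striatum was compared with that of brainstem, cerebellum and cortex in wild-type mice. The striatum was represented by 8 libraries and the other regions by 22 (8 brainstem, 7 cerebellum and 7 cortex), chosen by the tissue and genotype in the sample labels, out of 53 libraries in the study and 30 from wild-type mice. These were male C57BL/6 mice aged 75 or 77 weeks. They were given motor tests at earlier ages, blood was drawn from mice of the study by tail cut, and no drug was given. A mouse gave at most 1 library per region, from about 30 mg of dissected frozen tissue. The study set these mice beside SCA3 mice (strain MJD84.2, hemizygous, males of 74 to 77 weeks), which carry human ATXN3 with a lengthened CAG tract, driven by its own promoter, beside their mouse Atxn3 gene. They are a model of spinocerebellar ataxia type 3. The 23 SCA3 libraries (5 striatum, 6 brainstem, 6 cerebellum and 6 cortex) were kept out of the comparison and are used only as further samples for the same regional contrast. Striatum was compared with the mean of the 3 other region means and with each of these regions, with the mouse as a block, and a gene was called at a false discovery rate (FDR) below 0.05. Expression is given in CPM, the counts of a gene scaled to a library total of 1000000, and a fold change is the log2 of striatum over the other regions with its standard error (SE). A difference given without another reference is the log2 fold change against the mean of the 3 region means.

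The striatum is the input nucleus of the basal ganglia. Most of its neurons are GABAergic spiny projection neurons, which receive glutamate from cortex and thalamus and dopamine from the midbrain. Direct pathway neurons carry the D1 dopamine receptor with the peptides substance P and dynorphin, and indirect pathway neurons carry the D2 dopamine receptor, the A2a adenosine receptor and enkephalin. Both kinds pass receptor signals through the G protein Golf, adenylyl cyclase 5, cyclic AMP and protein kinase A to DARPP-32, and phosphodiesterases end the signal. Cholinergic and GABAergic interneurons make up the rest, and the striatum holds few glutamatergic cell bodies. Retinoic acid is known to act on the developing and adult striatum through the receptor Rarb and its partner Rxrg.

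To show the start sites of genes described below, the 250 bases before a RefSeq start site on GRCm38.p6 are printed 5′ to 3′ on the gene's strand for the retinoic acid receptor and for both main dopamine receptors. The Rarb window lies at chr14:16575477-16575726 on the minus strand, the Drd1 window at chr13:54054781-54055030 on the minus strand (of 2 listed start sites, the one whose window holds a motif searched here) and the Drd2 window at chr9:49340153-49340402 on the plus strand. Capitals mark a direct repeat of retinoic acid receptor half-sites in Rarb and the GC box GGGCGG, on either strand, in the other windows.
Rarb: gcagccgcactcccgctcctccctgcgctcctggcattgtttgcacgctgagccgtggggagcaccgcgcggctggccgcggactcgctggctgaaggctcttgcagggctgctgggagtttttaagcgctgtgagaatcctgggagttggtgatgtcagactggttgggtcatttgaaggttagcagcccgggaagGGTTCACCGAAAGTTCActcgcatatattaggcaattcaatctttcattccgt
Drd1: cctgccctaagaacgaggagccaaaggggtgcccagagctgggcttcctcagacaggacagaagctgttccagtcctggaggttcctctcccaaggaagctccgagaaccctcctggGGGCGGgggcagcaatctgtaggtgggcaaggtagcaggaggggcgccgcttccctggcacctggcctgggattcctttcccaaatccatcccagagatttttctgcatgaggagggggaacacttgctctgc
Drd2: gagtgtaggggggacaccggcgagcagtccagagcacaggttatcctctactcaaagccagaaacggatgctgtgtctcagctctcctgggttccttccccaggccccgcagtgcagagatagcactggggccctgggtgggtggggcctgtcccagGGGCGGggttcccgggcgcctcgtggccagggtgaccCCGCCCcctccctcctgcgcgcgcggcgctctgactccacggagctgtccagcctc
The repeat in Rarb, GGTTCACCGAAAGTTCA, lay 53 to 37 bases before the start site. The GC box lay 133 to 128 bases before this Drd1 start, and in Drd2 at 93 to 88 bases on the plus strand and 56 to 51 bases on the minus strand. Motifs were counted on both strands in all RefSeq windows of 250 bases before to 50 bases after a start site. A pair of half-sites, AGGTCA or a variant with AG or GG followed by TTCA or GTCA, in direct repeat with 5 bases between them, was found in 32 of 32851 windows (0.0974%), and among the windows of the genes described below as higher in striatum than in each other region, Rarb held the match, 1 of 63 windows. GGGCGG was found in 41 of these 63 windows (65.1%), in 18 of 37 windows (48.6%) of the genes lower than in each region, and in 35.7% of all windows. The cyclic AMP response element TGACGTCA was in 0 of the 63 and 0 of the 37 windows and in 1.79% of all windows, and its shorter form TGACG, which the full element contains, was in 11.1%, 24.3% and 20.8%. TATAAA was in 11.1%, 10.8% and 13.6%. Windows were listed for 45 of the 61 higher and 25 of the 34 lower genes, and a gene can have several. All windows together cover 27025 RefSeq genes, while both sets come from the 12372 genes kept for averaging above 4 CPM. The backgrounds are therefore unlike, and the shares were not tested.

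Libraries of the striatum differed in what else they held. Of 14 thalamus markers written down for this purpose, 11 were measured, and their summed level in striatum ran from 189 to 2850 CPM with a median of 351, against 541 to 983 in brainstem, 651 to 774 in cerebellum and 238 to 397 in cortex. The highest striatal sums were 2849 in mouse 7267059 and 1678 in mouse 7267058, and the other 6 libraries lay between 188.5 and 437.8. The summed choroid plexus markers were also highest in these libraries, at 1278 and 845.6 CPM against 281.3 to 426.8 in the other 6, as were the oligodendrocyte markers. Leaving out these libraries therefore does not bear on thalamus markers alone. In the same order, Prkcd (protein kinase C delta, abundant in thalamic relay neurons) stood at 861 and 293 CPM and the vesicular glutamate transporter Slc17a6 at 291 and 314, whereas Slc17a6 was at 2.89 CPM in mouse 9082857 and 3.47 in mouse 9083371. The library of mouse 9083375 had the most Slc17a7, the transporter of cortical glutamatergic neurons, at 597 CPM, where the striatal median was 65.5. Cortex libraries had 25.2 to 121 CPM of Drd1, and whether striatal tissue had a part in this was not tested. In bulk tissue fewer cells of a type and less RNA per cell cannot be told apart. Results that rest on the 2 libraries rich in thalamus markers are given with and without them.

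RNA integrity numbers (RIN) were 7.48 ± 0.979 in striatum (SD, n = 8), 7.24 ± 0.424 in brainstem (n = 8), 7.84 ± 0.299 in cerebellum (n = 7) and 7.83 ± 0.125 in cortex (n = 7). The within-mouse difference, striatum minus the mean of the other regions, was -0.108 (exact two-sided sign-flip permutation p = 0.867). Striatal libraries held 57.6 ± 13.2 M counts (SD, M for 1000000) against 49.8 to 51.6 M on average in the other regions, a within-mouse difference of 8.11 M (exact permutation p = 0.0469, 0.0938 after adjustment over both measures, where the smallest p that 8 mice allow is 0.00781).

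Striatum differed from the mean of the other regions in 7029 of 12372 genes (56.8%), with 3464 higher (28.0%) and 3565 lower (28.8%). The differences were mostly small: the median absolute log2 fold change was 0.176, and 470 of the higher and 249 of the lower genes were past 1 log2 unit. Against brainstem 4177 genes were higher (33.8%) and 4071 lower (32.9%). Against cerebellum the numbers were 4354 (35.2%) and 4353 (35.2%). Cortex was the nearest region, with 2001 genes higher (16.2%) and 2094 lower (16.9%). These 3 comparisons share the striatum libraries and are read side by side. A gene far from the mean of the others can be low in only 1 of them, so the genes called and at least 1 log2 unit away in the same direction from each region were taken separately. There were 61 such genes higher (0.493% of the table) and 34 lower (0.275%). Across the whole table all 8 striatum libraries lay above all 22 others for 29 genes (0.234%) and below them for 20 (0.162%), and these included 8 of the 61 and 6 of the 34.

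Without the 2 libraries rich in thalamus markers, 73 genes were higher and 50 lower than in each region, of which 57 and 29 were among the 61 and 34. The 61 genes were higher than in the same mouse's own brainstem in every mouse with both libraries for 55 genes, than in its cerebellum for 59 and than in its cortex for 53. Their median log2 fold change was 2.20 against the mean, 2.14 against brainstem, 3.00 against cerebellum and 1.28 against cortex. Cortex gave the smallest of the 3 differences for 53 of the 61, brainstem for 5 and cerebellum for 3. Among the 8 striatum libraries, that of mouse 7267059 was the lowest for 51 of the 61 genes, where it was the lowest for 22.8% of all genes. The libraries of mice 9083371 and 9082857 were the highest for 31 and 21 of the 61, against 11.7% and 14.1% of all genes.

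**Figure D1:**
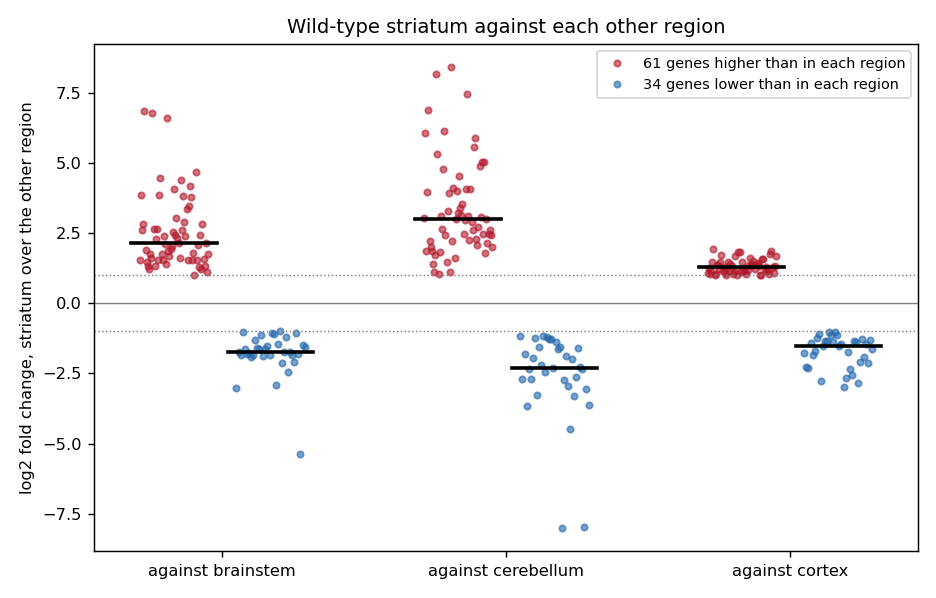
Log2 fold change (vertical axis) of wild-type striatum over brainstem, cerebellum and cortex for the 61 genes higher and the 34 genes lower than in each region, 1 point per gene, with black bars at the medians and dotted lines at the limit of 1 log2 unit. The higher genes have medians of 2.14, 3.00 and 1.28, and all 61 lie within 1.00 to 1.91 against cortex, a narrower band than against the other regions.

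Dopamine and adenosine receptors of projection neurons were among the genes with the largest differences. Drd1 (chr13:54051183-54055658, minus strand), the D1 receptor, ran from 68.8 to 342 CPM in striatum with a median of 183, from 0.805 to 4.01 in brainstem (median 1.29), from 0.332 to 1.1 in cerebellum (0.612) and from 25.2 to 121 in cortex (72.5). Every striatum library lay far above brainstem and cerebellum, and the striatal and cortical ranges overlapped, though each of the 7 mice with both libraries had more in its striatum than in its own cortex. Mouse 7267059, with the lowest striatal value, had no cortex library. The log2 fold change was 5.46 ± 0.23 (SE) against the mean (FDR = 2.35e-13), made up of 6.79 against brainstem, 8.15 against cerebellum and 1.45 against cortex. Drd2 (chr9:49340360-49408177, plus strand), the D2 receptor, ran from 49.2 to 233 CPM in striatum (median 111), 12.8 to 24.7 in brainstem, 0.443 to 6.96 in cerebellum and 8.04 to 60.5 in cortex (median 51.1). The lowest striatum library alone reached the cortical range, and the difference from the mean was 3.22 ± 0.31 (FDR = 2.43e-08). Adora2a (chr10:75316877-75334792, plus strand), the A2a adenosine receptor, ran from 84.3 to 370 CPM in striatum (median 161), stayed between 1.3 and 2.14 in brainstem and cerebellum, and ran from 20.6 to 116 in cortex (median 87.7). Its log2 fold change was 5.06 ± 0.20 against the mean and 1.48 ± 0.27 against cortex. Gpr52, an orphan receptor of indirect pathway neurons, had 19.8 to 88.5 CPM in striatum and 11.2 to 22.6 in cortex, and its difference was 4.02 ± 0.17. Without the 2 libraries rich in thalamus markers these differences from the mean were 5.41 for Drd1, 3.22 for Drd2, 5.17 for Adora2a and 4.13 for Gpr52.

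**Figure D2:**
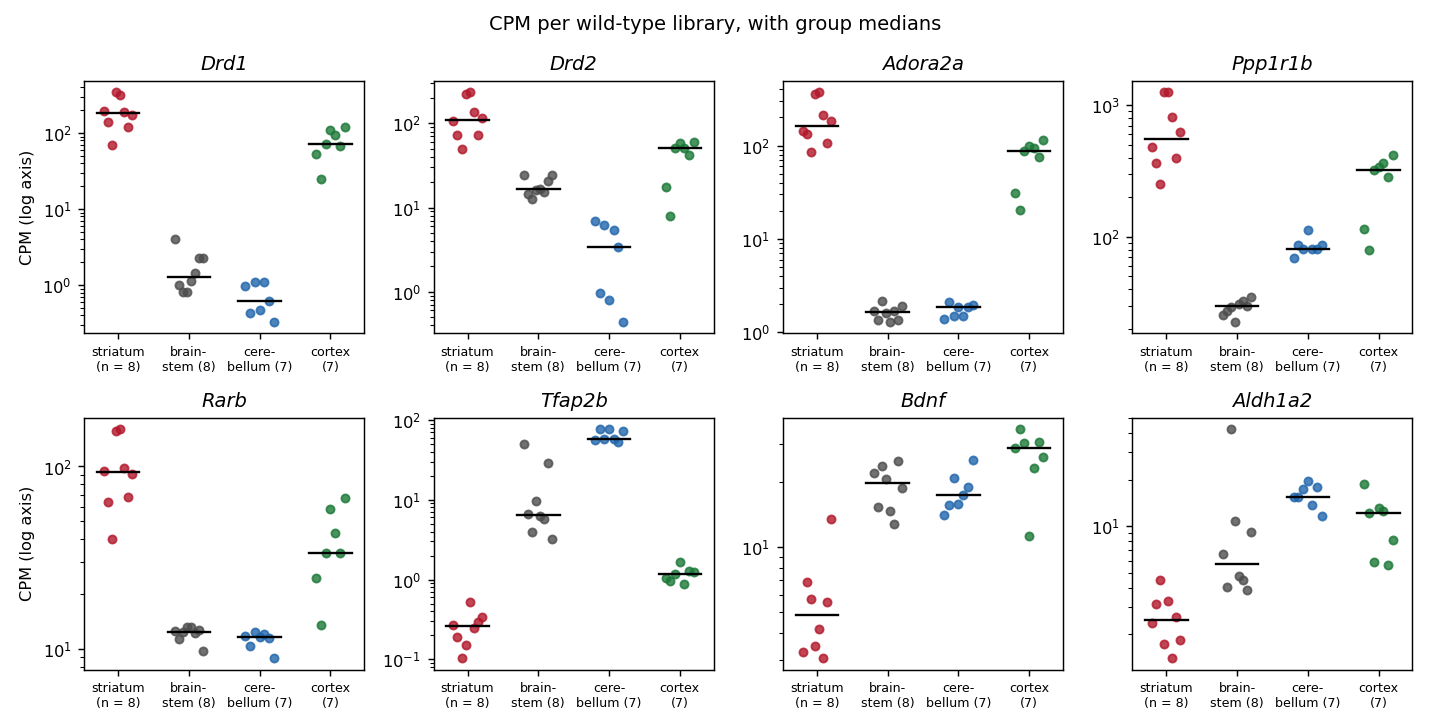
CPM on a log axis for 8 genes in each wild-type library of striatum (n = 8), brainstem (n = 8), cerebellum (n = 7) and cortex (n = 7), 1 point per library with a bar at the group median. Drd1, Drd2, Adora2a, Ppp1r1b and Rarb are highest in striatum and next in cortex, while Tfap2b, Bdnf and Aldh1a2 have their lowest medians in striatum.

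Over the list of projection neuron receptors, 12 of 16 measured members were higher than the mean and 1 was lower, Adora1, with a median log2 fold change of 1.79 where the median of all genes was -0.00799. The share of all genes called higher was 28.0%. Against cortex 6 of 16 were higher (16.2% of all genes), and 5 were higher than each region: Drd1, Drd2, Adora2a, Gpr52 and Htr1b, the last a serotonin receptor with 5.68 to 19.0 CPM in striatum. The muscarinic receptors Chrm4 and Chrm1 were higher than the mean by 3.35 and 3.54, and against cortex their values were 0.40 (FDR = 0.149) and -0.58 (FDR = 0.172). Without the 2 libraries the list had 9 of 16 members higher than cortex, Chrm4 among them (0.56, FDR = 0.0289), and a median of 1.87 against the mean.

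Of 8 measured direct pathway markers 6 were higher than the mean, 1 was lower and the median was 2.60. Against cortex 3 were higher and 1 was lower, with a median of 0.573, and without the 2 libraries rich in thalamus markers 4 were higher and 0 lower. Tac1, the precursor of substance P, ran from 66.4 to 272 CPM in striatum (median 149) and from 26.4 to 167 in cortex (median 85.2). Pdyn, the precursor of dynorphin, ran from 57.7 to 167 CPM in striatum (median 104) and from 26.1 to 136 in cortex (median 74.0). The striatal and cortical ranges overlapped widely for both peptides, and against cortex they had log2 fold changes of 0.75 (FDR = 0.258) and 0.40 (FDR = 0.485), beside 2.40 and 3.45 against the mean. The lower member was Ebf1, a transcription factor of direct pathway neurons, which was 0.94 log2 units below the mean and 1.01 above cortex, with 10.3 to 22.3 CPM in striatum, 4.07 to 8.60 in cortex and 49.4 to 68.2 in cerebellum. Of 6 measured indirect pathway markers 5 were higher than the mean (median 2.71), 4 were higher than cortex (median 1.3) and 4 were higher than each region, among them Penk, the enkephalin precursor. When the 2 libraries were left out, 1 of the 6 was lower than the mean. Penk had 371 to 1370 CPM in striatum (median 748) and 163 to 608 in cortex (median 334), a difference of 2.20 ± 0.22 against the mean and 1.13 ± 0.30 against cortex. Whether the markers of these pathways differed in their distance from cortex was not tested. Over 12 measured neuropeptide precursors 6 were higher and 2 were lower than the mean, beside 28.0% and 28.8% of all genes. Against cortex 1 was higher and 3 were lower (median -0.298), beside 16.2% and 16.9% of all genes. The 2 lower than the mean were Adcyap1, the precursor of the peptide PACAP, at -1.99, and Chgb, a granin of secretory granules, at -0.89. All striatal values of Chgb (284 to 381 CPM) lay below the lowest of the other libraries (383).

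Most genes that act downstream of these receptors were higher too. In the list of cyclic AMP and DARPP-32 signalling, all 28 members were measured, 24 were higher than the mean, 1 was lower and the median was 1.54. Against cortex 16 were higher and 1 lower, with a median of 0.499 (19 and 2 without the 2 libraries rich in thalamus markers), and 7 were higher than each region. Starting at the G protein, Gnal, the alpha subunit of Golf, was higher by 1.53 ± 0.10 and Gng7, its gamma subunit, by 3.30 ± 0.17. Adcy5, adenylyl cyclase 5, had 447 to 1530 CPM in striatum (median 852), 119 to 136 in brainstem, 49.1 to 67.9 in cerebellum and 233 to 629 in cortex (median 437), a difference of 2.63 ± 0.14. Ppp1r1b (chr11:98348406-98357796, plus strand), which encodes DARPP-32, had 252 to 1250 CPM in striatum (median 553), 22.7 to 34.8 in brainstem, 68.7 to 113 in cerebellum and 79.7 to 422 in cortex (median 321). All striatum libraries were above all brainstem and cerebellum libraries, and the difference was 2.90 ± 0.19 against the mean and 1.36 ± 0.26 against cortex.

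Phosphodiesterases, which break down cyclic nucleotides, included Pde10a at 549 to 2310 CPM in striatum (median 1050) and 135 to 612 in cortex (median 515), a difference of 2.91 ± 0.19. Pde7b and Pde1b were higher than each region as well, at 2.56 and 2.70 against the mean. For Pde7b the lowest striatum library, 111 CPM, was above the highest of the other libraries, 103 in cortex. Pde2a was higher than the mean by 2.35, while against cortex it had 0.20 (FDR = 0.435). Rgs9, which speeds the shut-off of G proteins, was higher by 3.73 ± 0.24 and than each region. Rgs14 was higher by 4.05 than the mean with a cortical difference of -0.09 (FDR = 0.827). The anchoring protein Akap5 (3.04) and Arpp21 (2.63), a phosphoprotein regulated by cyclic AMP, were higher than the mean and than cortex by less than 1 log2 unit. The lower member was Prkar1b, a regulatory subunit of protein kinase A, at -0.24.

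Ras, calcium and diacylglycerol signalling followed with 15 of 20 members higher and 2 lower, Dgkz and Plcb4, at a median of 0.995. The shares of all genes were 28.0% and 28.8%. Against cortex 7 were higher and 4 lower (median 0.254), and against cerebellum 14 were higher and 5 lower. Plcb4 lost its call without mouse 9082857 or 9083371 (highest FDR = 0.0546). Prkch, protein kinase C eta, had 34.6 to 67.5 CPM in striatum (median 45.3), 3.15 to 17.3 in brainstem, 2.27 to 3.30 in cerebellum and 5.36 to 31.4 in cortex. No library of another region reached the striatal range, and the difference was 2.77 ± 0.21. Rasd2, a small G protein also known as Rhes, was higher than each region (2.93 ± 0.18 against the mean), as were Rasgrp2 (1.88) and Actn2 (3.73), an actinin of dendritic spines. Camk2a, the alpha subunit of calcium/calmodulin kinase, was higher than the mean by 1.84 and lower than cortex by 0.82, which was -0.64 (FDR = 0.0532) without the 2 libraries rich in thalamus markers. Of 16 ion channel genes of projection neurons 14 were higher and 1 was lower than the mean, with a median of 1.62. The sodium channel subunit Scn4b, the potassium channel Kcna4, its partner Kcnab1 and the calcium release channel Ryr3 were higher than each region, by 1.76, 2.37, 1.21 and 1.61 against the mean. Ryr3 had 0.993 against cortex without the 2 libraries rich in thalamus markers, just under the limit of 1. The inward rectifier Kcnj4 had 50.0 to 208 CPM in striatum and 78.3 to 195 in cortex, so that its difference of 4.63 from the mean came with -0.06 against cortex (FDR = 0.928).

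Among 18 measured transcription factors of striatal neurons, 13 were higher than the mean and 3 were lower, with a median of 1.07. Against cortex 12 of 18 were higher and 1 was lower, with a median of 1.01. Rarb (chr14:16430839-17082331, minus strand) had 40.0 to 160 CPM in striatum (median 92.8), 9.81 to 13.3 in brainstem, 8.91 to 12.4 in cerebellum and 13.6 to 67.3 in cortex (median 33.8). Striatal values overlapped with cortex only, and the difference was 2.44 ± 0.17. Its exons share 1793 bases with Top2b, and reads were counted without strand, so that part of its count may belong to the neighbour. Rxrg, a partner of Rarb, was higher by 3.67 ± 0.24, Foxp1 by 2.28, Foxo1 by 1.8 and Meis2 by 2.25, and all 4 were higher than each region. Six3 had 49.3 to 97.0 CPM in striatum, 0 to 14.6 in brainstem and 4.91 to 50.4 in cortex, and its fold change of 3.73 ± 0.73 against the mean was 1.86 ± 0.99 against cortex (FDR = 0.151). The difference from the mean was 3.00 without the 2 libraries rich in thalamus markers. Bcl11b, also known as Ctip2, was higher than the mean by 3.45 and had 0.83 against cortex (FDR = 0.0736), which was 1.00 (FDR = 0.0477) without the 2 libraries rich in thalamus markers. The lower members were Ebf1, Meis1 (-0.87) and Zfp521 (-0.38), which were each higher than cortex and lower than cerebellum. Without the 2 libraries rich in thalamus markers 2 members were lower than the mean, since Zfp521 had -0.34 (FDR = 0.0996), and Meis1 had 0.59 against cortex (FDR = 0.0518). Zfp521 also lost its call without mouse 7267059, 9082857, 9083371 or 9083375 (highest FDR = 0.118). Mef2c was higher than the mean by 0.88 and lower than cortex by 1.41.

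In the list of retinoid signalling 5 of 14 measured members were higher and 5 lower than the mean, beside 28.0% and 28.8% of all genes, with a median of 0.147. The receptors Rarb and Rxrg stood above each region. Aldh1a2, which makes retinoic acid, had 1.40 to 4.49 CPM in striatum (median 2.47), 3.86 to 42.4 in brainstem, 11.6 to 19.7 in cerebellum and 5.6 to 18.8 in cortex, a difference of -2.24 ± 0.31. Striatum overlapped with the lowest brainstem libraries only. Cyp26b1, which breaks retinoic acid down, was lower than each region too (-2.08 ± 0.50), but without the 2 libraries rich in thalamus markers it had -1.75 against cortex (FDR = 0.0504). Aldh1a1, a further retinaldehyde dehydrogenase, was lower than the mean by 1.52 (-2.17 without the 2 libraries) with 0.10 against cortex, and the receptor Rara was lower by 0.65. In a fit without the 2 libraries 8 members were higher and 4 lower.

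The remaining genes of the rule for full values were less known from projection neurons. Lrrc10b (chr19:10455371-10457447, minus strand), a leucine-rich repeat protein, had the largest fold change of the 61, 5.56 ± 0.25, with 48.0 to 252 CPM in striatum (median 116), 0.699 to 1.68 in brainstem, 0.0738 to 0.770 in cerebellum and 9.58 to 67.7 in cortex. Onecut2, a transcription factor, had 23.6 to 98.6 CPM in striatum (median 49.4) and at most 21.0 elsewhere, with no overlap and a difference of 2.3 ± 0.21. Nexn, an actin-binding protein, had 44.0 to 135 CPM in striatum and at most 33.2 elsewhere, again with no overlap (1.78 ± 0.18). Syndig1l, a synaptic membrane protein, was higher by 2.53 ± 0.23 (48.0 to 311 CPM against 11.4 to 69.4 in cortex). Serpina9, a protease inhibitor, was higher by 3.71 ± 0.37 (10.8 to 59.4 CPM against 1.87 to 23.8 in cortex). Exons of Nexn, Syndig1l and Serpina9 overlap those of neighbouring genes, from which counts without strand cannot separate them.

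Both Ak7, an adenylate kinase, and Ttc21a, a ciliary transport protein, were low in every library. Ak7 had 5.6 to 30.0 CPM in striatum (median 11.6) and 1.07 to 10.1 elsewhere, and Ttc21a had 5.26 to 21.0 (median 8.80) and 0.765 to 8.53. Their differences were 2.00 ± 0.26 and 1.8 ± 0.24, and their highest striatum libraries were those of mice 7267058 and 9083373, with 30.0 and 27.5 CPM of Ak7. The summed level of 2 ependymal markers was also highest in these 2 libraries, at 70.94 and 76.4 CPM, against 44.78 to 54.56 in the other 6, and 1 of the 2 was higher than the mean. The list had 12 markers, most of them not measured, and the part of ependyma in the result was not tested.

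Synpo2 and Rasd1 no longer met the limit against each region when the 2 libraries rich in thalamus markers were left out. Synpo2, itself on the thalamus list, had 154 and 92.1 CPM in the striatum of mice 7267059 and 7267058 and 12.6 to 22.9 in the other 6. Its difference of 1.86 ± 0.29 was 1.14 without these 2 libraries, with 0.75 against brainstem, below the limit of 1. Rasd1, a small G protein induced by dexamethasone, ran from 2.05 to 45.8 CPM in striatum (median 22.4), where mice 9082857 and 9083371 had 2.05 and 2.23 and the others 13.8 to 45.8. The other regions had 2.51 to 13.6 CPM, so that the striatal range enclosed theirs, and Rasd1 was higher than in the mouse's own cortex in 5 of 7 mice. Its difference was 2.04 ± 0.36 (FDR = 6.91e-05), and 1.49 against cortex (FDR = 0.0236), which became 1.13 (FDR = 0.102) without the 2 libraries rich in thalamus markers. The same 2 mice with low Rasd1 had the lowest Prkcd (19.9 and 15.1 CPM) and Zic1 (17 and 21.3, against 90.1 to 210 in the other 6). The part of other tissue in these results was not tested.

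**Figure D3:**
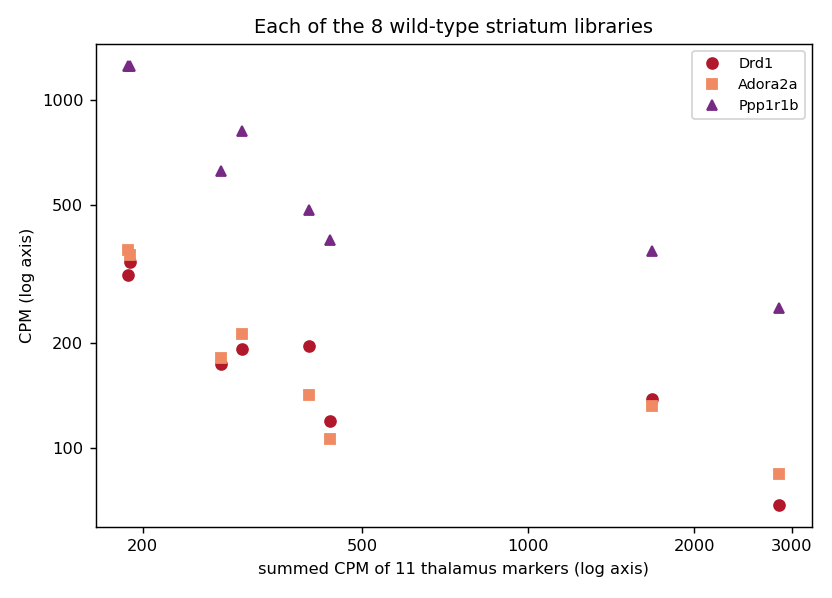
CPM of Drd1, Adora2a and Ppp1r1b (vertical log axis) against the summed CPM of 11 thalamus markers (horizontal log axis) in each of the 8 wild-type striatum libraries. The 2 libraries with sums of 188.5 and 190.0 have the highest levels of all 3 genes (Drd1 at 315 and 342 CPM), and the library with the sum of 2849 has the lowest (Drd1 at 68.8 CPM).

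Of the 34 genes lower than in each region, Tfap2b had the largest difference. Tfap2b (chr1:19208908-19238845, plus strand), a transcription factor, was at 0.103 to 0.524 CPM in striatum (median 0.260), 3.23 to 49.7 in brainstem, 52.8 to 76.7 in cerebellum and 0.882 to 1.66 in cortex. No striatum library reached any other, and the log2 fold change was -5.15 ± 0.47 against the mean (FDR = 1.01e-08) and -2.12 ± 0.53 against cortex. Bdnf (chr2:109674700-109727043, plus strand), the neurotrophin that cortical afferents supply to striatum, had 3.05 to 13.5 CPM in striatum (median 4.86), 12.8 to 25.0 in brainstem, 14.1 to 25.3 in cerebellum and 11.2 to 35.2 in cortex. Except for the library of mouse 9083375 at 13.5 CPM, which was also the richest in Slc17a7, all striatal values were below all others. The difference was -1.98 ± 0.20. Nrn1, neuritin, which is induced by activity, ran from 4.82 to 82.9 CPM in striatum (median 19.4) and from 64.9 to 192 elsewhere, and its highest striatal values were 82.9 and 70.6 in the 2 libraries rich in thalamus markers. Its difference of -2.12 was -2.66 without them. Exons of Bdnf overlap those of another gene by 896 bases and exons of Nrn1 those of Fars2 by 501 bases, which these counts cannot separate.

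The other 5 named genes are known from meningeal and connective tissue cells: Fmod and Ogn encode small proteoglycans, Prg4 encodes lubricin, Ptgds makes prostaglandin D2, and Aldh1a2 was described above. Fmod had 2.29 to 5.21 CPM in striatum (median 3.19), 5.30 to 50.0 in brainstem, 25.9 to 37.8 in cerebellum and 13.8 to 26.5 in cortex, with no overlap and a difference of -2.64 ± 0.25. Ptgds had 74.2 to 334 CPM in striatum (median 122), 269 to 1740 in brainstem, 581 to 1090 in cerebellum and 324 to 1180 in cortex, a difference of -2.19 ± 0.26. In all 5 genes 1 brainstem library, that of mouse 7267059, stood above the others, with 50.0 CPM of Fmod, 56.0 of Ogn, 67.3 of Prg4, 1740 of Ptgds and 42.4 of Aldh1a2. Ogn and Prg4 were below the mouse's own brainstem in 6 and 5 of 8 mice, and their differences of -2.42 and -2.62 were -2.25 and -2.37 without that mouse. Without the 2 striatum libraries rich in thalamus markers Prg4 had -1.42 against brainstem (FDR = 0.0556) and no longer met the limit against each region. No list of meningeal markers was counted, and the part of the surface membranes in these differences was not tested. The 34 genes as a whole had a median of -1.94 against the mean, -1.72 against brainstem, -2.3 against cerebellum and -1.53 against cortex. They were lower than in the mouse's own brainstem in every mouse with both libraries for 24 genes, than in its cerebellum for 30 and than in its cortex for 29.

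Genes that make and load GABA were mostly higher. Of 6 genes of GABA synthesis and transport 4 were higher than the mean and 0 were lower. The synthesising enzymes Gad1 and Gad2 were higher by 0.77 ± 0.14 and 1.28 ± 0.17 and the vesicular transporter Slc32a1 by 0.76 ± 0.12. Gad2 had 500 to 955 CPM in striatum (median 655), 159 to 556 in brainstem, 171 to 224 in cerebellum and 223 to 675 in cortex. Of 2 vesicular glutamate transporters 0 were higher and 1, Slc17a7, was lower by 1.63 ± 0.50 and by 3.34 ± 0.62 against cortex, where it ran from 357 to 1630 CPM. Without the 2 libraries rich in thalamus markers, which had 314 and 291 CPM of Slc17a6 against 2.89 to 113 in the other 6, both transporters were lower than the mean (median -2.06, beside -1.33 with all libraries). Of 12 measured GABA-A receptor subunits 4 were higher, beside 28.0% of all genes, among them Gabra4 by 1.88 and Gabrd by 1.57. Of 18 ionotropic glutamate receptor subunits 8 were higher and 6 lower, beside 28.0% and 28.8% of all genes, with a median of 0.00657, with the NMDA receptor subunit Grin2b at 1.34 and the AMPA receptor subunit Gria4 at -0.92.

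Of 4 measured cholinergic interneuron markers 3 were higher than the mean and 0 lower, beside 28.0% and 28.8% of all genes. All 4 were higher than cerebellum (median 3.76). Against brainstem 0 were higher and 1 was lower (median 0.334), and against cortex 0 of the 4 were called in either direction. Chat, which makes acetylcholine, had 16.5 to 35.4 CPM in striatum (median 23.5), 1.97 to 32.6 in brainstem, 0 to 4.67 in cerebellum and 1.24 to 23.8 in cortex. The striatal median was the highest, the ranges overlapped with brainstem and cortex, and the difference was 2.22 ± 0.51. GABA interneuron markers had 2 of 6 higher (Sst at 1.41 and Npy at 0.90) and 3 lower, beside 28.0% and 28.8% of all genes. Pvalb was among the lower ones at -1.96, with 8.44 to 211 CPM in striatum, where the 211 belonged to mouse 7267059, and 406 to 539 in cerebellum. Its difference was -3.03 without the 2 libraries rich in thalamus markers, and against cortex it had -0.85 (FDR = 0.0491) beside 0.12. Of the striosome and matrix markers, 4 of 6 in each were higher and 1 of 6 in each was lower, beside 28.0% and 28.8% of all genes. Their medians were 0.476 and 1.36. Against cortex 0 striosome markers were higher and 1 was lower (median -0.108), and 3 matrix markers were higher and 1 was lower (median 0.43). Of 4 dopamine neuron markers 0 were higher and 1 was lower, beside 28.8% of all genes, and 0 were lower without the 2 libraries.

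Immediate early genes stood high in striatum and cortex alike. Of 13 measured members 10 were higher than the mean and 1, Ier2, was lower, with a median of 1.41, and against cortex 0 were called, with a median of 0.013. Egr3 had 47.1 to 257 CPM in striatum (median 153), 1.81 to 8.43 in brainstem, 0.439 to 2.56 in cerebellum and 74.3 to 263 in cortex (median 128). Its difference was 3.88 ± 0.26 against the mean and 0.06 ± 0.34 against cortex. Egr4 (2.74) and Fosb (1.91) behaved the same way, with 0.19 and 0.04 against cortex. Ier2 was lower than cortex (-0.98, FDR = 0.0105) without the 2 libraries rich in thalamus markers.

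**Figure D4:**
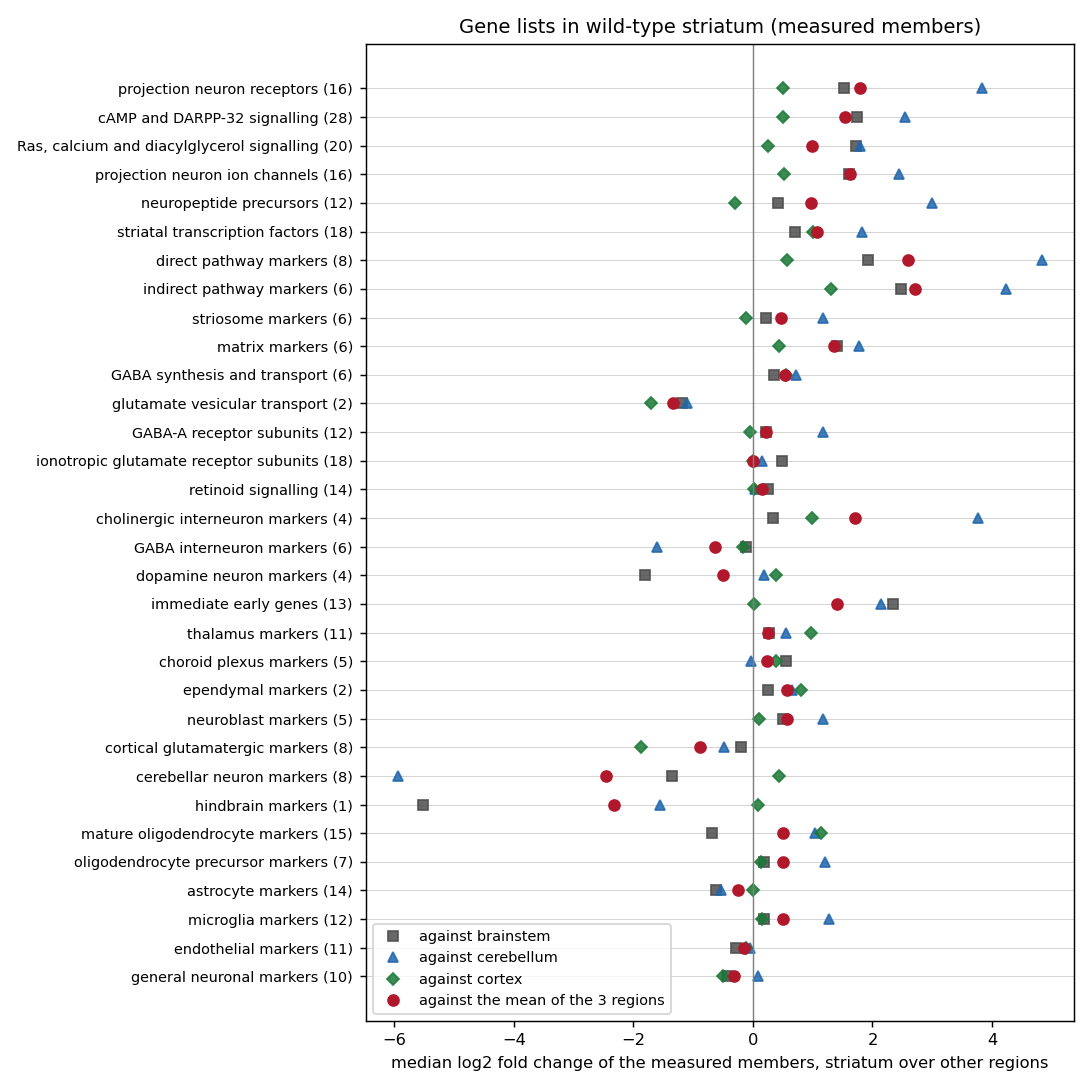
Median log2 fold change (horizontal axis) of the measured members of 32 gene lists in wild-type striatum against the mean of the other regions and against brainstem, cerebellum and cortex, 1 row of symbols per list with the number of measured members in brackets. Receptor, cyclic AMP and ion channel lists have medians of 1.79, 1.54 and 1.62 against the mean and 0.509, 0.499 and 0.514 against cortex. Markers of cerebellar neurons lie at -2.46 against the mean, -5.94 against cerebellum and 0.432 against cortex.

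Glial lists differed by region. Of 15 mature oligodendrocyte markers 12 were higher than the mean and 0 lower (median 0.496), but 0 were higher and 11 lower than brainstem (median -0.684), and 15 of 15 were higher than cortex (median 1.14). Their summed level ran from 7400 to 21800 CPM in striatum with a median of 9760, and the highest libraries were 21790 and 15790 in mice 7267059 and 7267058. Without these 2 libraries 5 of 15 were higher than the mean (median 0.267), 13 were lower than brainstem and 15 were still higher than cortex. Mbp, the myelin basic protein, had 3180 to 8960 CPM in striatum and a difference of 0.44 ± 0.17, which was 0.19 (FDR = 0.354) without both libraries. The call was also lost when mouse 7267058, 7267059, 9082857 or 9083371 was left out (highest FDR = 0.129). All 12 microglia markers were higher than the mean (median 0.506), with 12 higher than cerebellum, 6 than brainstem and 1 than cortex, and Cx3cr1, the fractalkine receptor, had 0.71 ± 0.06. The 12 were also higher without the 2 libraries. Oligodendrocyte precursor markers had 5 of 7 higher than the mean, beside 28.0% of all genes. Of the 7, 6 were higher than cerebellum, 2 than brainstem and 2 than cortex, and 1 was lower than brainstem. Of 14 astrocyte markers 8 were lower and 2 higher than the mean (median -0.246), beside 28.8% and 28.0% of all genes. Against brainstem 11 were lower and 3 higher. The water channel Aqp4 was lower than the mean by 1.08 and the glutamate transporter Slc1a2 higher by 0.72. Against cortex 0 astrocyte markers were lower and 2 were higher, beside 16.9% and 16.2% of all genes. When the 2 libraries were left out, 10 were lower than the mean and 1 was lower than cortex. Endothelial markers had 3 of 11 lower, beside 28.8% of all genes, with Cdh5 at -0.40. General neuronal markers had 3 of 10 higher and 5 lower, beside 28.0% and 28.8% of all genes. The lower ones included Stmn2 at -1.11, whose striatal values (99.5 to 280 CPM) were below all others. Against cortex 0 of the 10 neuronal markers were higher and 8 were lower (median -0.506), beside 16.2% and 16.9% of all genes.

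Markers of the neighbouring regions and of ventricular tissue are to be read beside the 28.0% of all genes called higher than the mean and the 28.8% called lower. Of 8 cerebellar neuron markers 0 were higher and 5 lower than the mean, which includes cerebellum. Against brainstem 3 were higher and 5 lower, and against cortex 3 were higher and 1 was lower (median 0.432). Their summed level had a median of 222 CPM in striatum, 126 in brainstem and 80.2 in cortex. Cbln3 of granule cells was at 0.278 to 1.03 CPM in striatum and 890 to 1670 in cerebellum. Of 8 cortical glutamatergic markers 2 were higher and 4 lower than the mean, and 7 were lower than cortex (median -1.87). The only hindbrain marker measured, of 15 listed, was lower. The thalamus list had 4 of 11 higher and 0 lower, which became 2 higher and 4 lower without the 2 libraries. Choroid plexus, ependymal and neuroblast markers had 1 of 5, 1 of 2 and 3 of 5 higher and 0, 0 and 1 lower. The choroid plexus median was 0.244, and -0.416 without the 2 libraries. The part of each of these tissues in the differences was not tested.

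The same contrast was fitted in the SCA3 libraries, which had not entered the choice of genes. There 3963 genes were higher (32.0%) and 4056 lower (32.8%) in striatum than in the mean of the other regions. Of the 61 genes 60 were called higher, at a median of 2.81, and 56 were at least 1 log2 unit higher than each region. Of the 34 genes 34 were called lower, at a median of -2.32, and 28 met the limit against each region. Drd1 had 219 to 310 CPM in the 5 SCA3 striatum libraries (median 292) and 26.5 to 155 in the 6 cortex libraries, with a fold change of 6.16. Here the striatal and cortical ranges did not overlap. Adora2a had 203 to 321 CPM in striatum (median 298) and 20.5 to 149 in cortex, with a fold change of 5.56, and Tfap2b had 0.175 to 0.346 CPM in striatum and at least 0.629 elsewhere, with -5.59. Rasd1 was the exception: its 5 SCA3 striatum libraries had 1.98 to 7.02 CPM (median 2.87), and its fold change was -0.42 (FDR = 0.321). Whether any gene's contrast differed between genotypes was not tested.

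**Figure D5:**
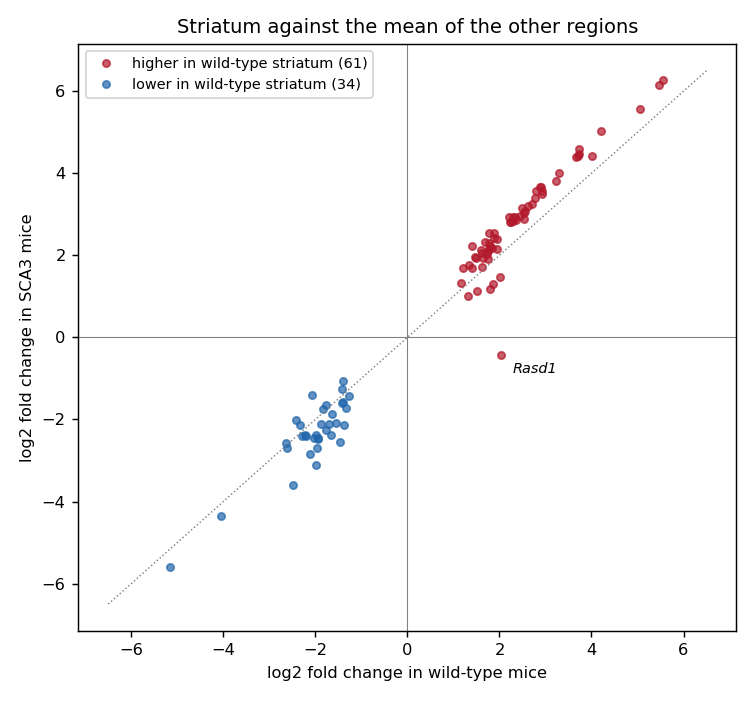
Log2 fold change of striatum over the mean of the other regions in wild-type mice (horizontal axis) and in SCA3 mice (vertical axis) for the 61 higher and 34 lower genes, 1 point per gene, with a dotted line of equal values. All points except Rasd1 (2.04 and -0.42) have the same sign in both genotypes, and most of the higher genes lie above the line, with medians of 2.20 and 2.81.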

How the data were processed

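RNA sequencing counts of 30 wild-type libraries (8 striatum, 8 brainstem, 7 cerebellum and 7 cortex) and 23 SCA3 libraries were analysed, grouped by the tissue and genotype labels. The authors deposited raw counts per gene. Per the labels and their methods, they made poly-A libraries without strand information, trimmed reads with cutadapt 1.10, aligned them to GRCm38 with STAR 2.3.0e, counted reads per RefSeq gene with HTSeq 0.6.1 without strand, and kept genes averaging above 4 CPM. The 12372 genes and all library columns were used. Reads of overlapping or near-identical genes are therefore uncertain. Wild-type library totals ran from 31.7 to 76.7 M counts (M for 1000000), and small differences at this depth can pass the test.

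The counts were normalised by TMM and fitted with edgeR 4.0.16 in R 4.3.3 (quasi-likelihood F test, terms for region and mouse), and p-values were adjusted by Benjamini-Hochberg over all genes. SCA3 libraries were fitted alone in the same way. Log2 CPM for the correlations between regions of a mouse used a prior count of 2, and fold changes used the default prior count of the fit. RIN and totals were compared within mice by exact sign-flip permutation. No 2 libraries held identical values. Regions of a mouse come from the same animal, so mice pair the libraries: departures of its libraries from their region means gave a mean r of 0.107 to 0.204 for each pairing of regions. Each mouse is 1 animal. With the mouse as a fixed block, the p-values rest on how the region differences vary from mouse to mouse, not on differences in level between mice.

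Genes given full values were the 15 higher and 8 lower genes with the largest smallest difference over the 3 regions among those called and at least 1 log2 unit from each region. Members of 32 lists (396 genes, 305 in the table), written from general knowledge, could be named with their list. Some members are not reported here. Members, lists and tests were chosen with earlier results of these data known. The ciliary theme of Ak7 and Ttc21a was looked at after their values were seen. Positions and sequences are from RefSeq (GRCm38.p6), where 12348 genes could be placed by symbol. Strands of genes and overlaps of exons are from GENCODE M21 (GRCm38).

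Alternatives were a fit without the mouse block, limma-voom 3.58.1 with the mouse as a random block, the likelihood ratio test, DESeq2 1.42.0, RLE scaling, only genes with at least 10 counts throughout, RIN as a covariate, libraries with a RIN of at least 7, another weighting of regions and leaving out each mouse. Fits without the 2 striatum libraries richest in thalamus markers, without cortex and within the 3 mice numbered like 7267055 and the 4 numbered like 9083371 (same leading digits) were added after seeing the data.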

Additional observations from a re-analysis of the deposited data

Results flagged for a closer look

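Single libraries that stood apart within their region were sought for the 23 named genes and 5 summed marker lists, in 112 groups of 7 or 8 libraries. A gap to the nearest library that was large for the range of the group was found in 16 groups (14.3%). The nominal 5% of this test holds for independent groups with a normal spread. These groups share libraries, so the 14.3% cannot be set against it.

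The brainstem library of mouse 7267059 accounted for 6 of them, as the highest for Fmod (50.0 CPM), Ogn (56.0 CPM), Prg4 (67.3 CPM), Ptgds (1740 CPM), Aldh1a2 (42.4 CPM) and Prkch (17.3 CPM). The cortex library of mouse 7267055 was the highest for Ptgds (1180 CPM), Prg4 (22.4 CPM) and the summed choroid plexus markers (1830 CPM). In the brainstem library of mouse 9083373 Syndig1l (38.1 CPM) and the summed cortical glutamatergic (301 CPM) and cerebellar neuron markers (358 CPM) were highest. Drd1 was highest in the brainstem library of mouse 7267055 (4.01 CPM) and Ak7 in the cortex library of mouse 9083371 (10.1 CPM). In the cerebellum library of mouse 9083375 Ogn was lowest (9.76 CPM), and in the striatum library of this mouse Bdnf was highest (13.5 CPM), which was the only striatal value found apart among these.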

How the results depend on the processing

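Leaving out each mouse in turn gave 6180 to 7367 genes against the mean, 7562 to 8410 against brainstem, 8177 to 8710 against cerebellum, 2832 to 4539 against cortex, 44 to 67 higher and 24 to 44 lower than each region. RIN differences ran from -0.295 to 0.0810, turning positive without mouse 7267055 or 7267058 (0.0810 and 0.0548), and library totals from 5.16 to 9.40 M counts. Without the replicate block that pairs regions by mouse the counts were 6457, 7680, 8363, 3784, 58 and 33, of which 55 and 30 were among the 61 and 34, and no count moved by over 1.5 times. The other planned fits gave 6487 to 7303 genes against the mean and 2937 to 4542 against cortex. The 3 mice with numbers like 7267055, which include both with libraries rich in thalamus markers, alone gave 1166, 848, 4109, 104, 19 and 7 genes, and the 4 with numbers like 9083371 alone gave 5980, 7286, 7979, 1061, 29 and 27. Of 108 genes chosen for naming, under 21 alternatives (2260 values), 2183 kept their direction and side of the threshold, 74 kept the direction only and 3 turned: Prkar1b without cortex (0.01785), and Plcb4 (0.21) and Pvalb (0.0129) in those 3 mice alone. The cause was not tested. Rasd1 met the limit against each region in 11 of 20 fits, Prg4 in 13, Serpina9 in 16, Tfap2b in 17 and Synpo2 in 18, and each other named gene in 19 or 20. List medians moved by less than their spread over mice in 650 of 671 values. Low genes such as Tfap2b in striatum rest on few counts, and their fold changes depend on the default prior count of the fit.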
